A study of Apis mellifera with 24 samples.

Results

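Large retrotransposon derivatives (LARDs) are transposable elements (TEs) that keep the long terminal repeats of a retrotransposon but have lost its protein-coding part. The annotation used for the honey bee lists 16221 of them among 34760 TEs, and the elements described here are the 11379 LARDs (32.7% of all TEs) that lie on chromosomes 1 to 15. They were chosen by name and position alone, as every TE whose name holds LARD and whose chromosome is placed and is not 16. The other LARDs, 533 on chromosome 16 and 4309 on unplaced scaffolds, serve with the 18539 remaining TEs for comparison. The label is that of the annotation: 11338 of the 11379 names hold only LARD codes, 331 carry the code for a chimeric LARD, and 41 are merged entries with the code of another element. The elements were short, with a median length of 175 bases and a range of 8 to 25368 bases, against a median of 202 bases over all TEs. They lay about equally on the + strand (5725) and the - strand (5654).

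piRNAs are small RNAs that guide Piwi proteins, and they are best known for silencing TEs in animal germ lines. A piRNA antisense to an element can pair with the transcript of that element, while a sense piRNA has the sequence of the transcript itself. Many piRNAs are cut from long precursors made at piRNA clusters, regions rich in remnants of TEs, and others are cut from the transcripts of protein-coding genes. A read that is antisense to a TE inside a gene can therefore also be a read along the transcript of that gene.

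Small RNA libraries came from semen of adult drones (2), from testes of drone pupae 24, 72 or 144 h after pupation (8), from spermathecae of adult laying queens (3), from eggs under 24 h old (8) and from ovaries of adult laying queens (3). The eggs were laid by mated queens, fertilised or unfertilised, or by virgin queens into worker or drone cells, the testes came from pupae of a single colony, and semen was pooled over drones. Mated queens store sperm in the spermatheca, and 1 spermatheca library is labelled as made from several queens. The deposited tables hold raw counts of putative piRNA reads on TEs and on genes, sense and antisense, with a single column for each tissue, so the eggs column spans conditions and the testes column spans pupal ages. Every value below is the authors' pooled value for a tissue, with no spread between samples, no test and no p-value. The 95% Wilson intervals, shown where they differ from the rounded value, cover counting error alone, since PCR copies were not marked with molecular identifiers.

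Counts on all TEs summed to 133767 in semen, 1152010 in testes, 6030354 in spermatheca, 88755771 in eggs and 57645559 in ovaries. Reads outside TEs are not in these sums, which are therefore no measure of library depth. According to the labelled flow cells, ovaries were sequenced together with 2 of the spermatheca libraries, testes together with the remaining one, and semen together with the eggs of virgin queens. Tissue and run therefore cannot be told apart for semen, testes or eggs against ovaries, nor for semen against testes. In whole tissues, fewer cells that carry an RNA and less of it per cell cannot be told apart either.

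LARDs of chromosomes 1 to 15 took a far larger share of TE counts in the male tissues than in eggs and ovaries. They held 22155 counts in semen, 209115 in testes, 201599 in spermatheca, 75458 in eggs and 77603 in ovaries. As shares of TE counts these were 16.6% in semen (16.4 to 16.8), 18.2% in testes (18.1 to 18.2), 3.34% in spermatheca (3.33 to 3.36), 0.0850% in eggs (0.0844 to 0.0856) and 0.135% in ovaries (0.134 to 0.136). Testes thus had more counts on these elements than eggs or ovaries, from a far smaller TE total. The authors found that a smaller part of the putative piRNAs mapped to piRNA clusters in testes and semen than in the other tissues. They propose that many reads of piRNA length in testes and semen may not be true piRNAs, or may arise by a non-canonical route.

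**Figure D1:**
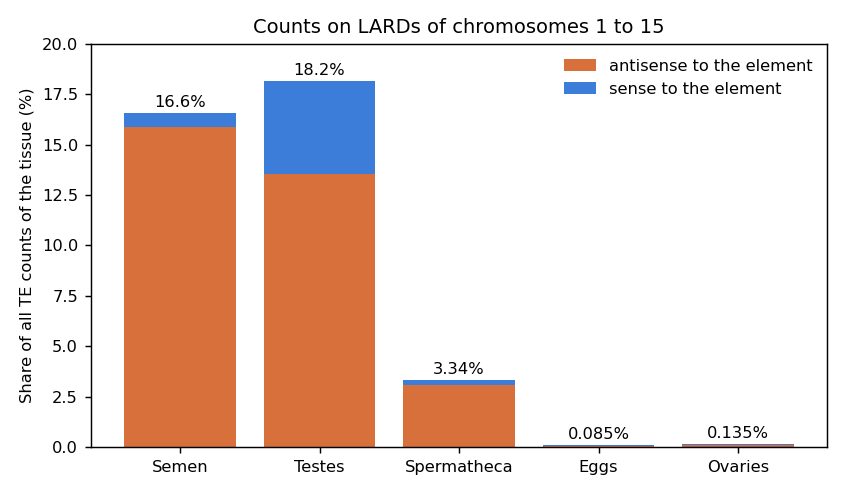
Share of all TE counts (%, y axis) that fell on LARDs of chromosomes 1 to 15 in each tissue (x axis, 1 pooled column each), split into counts antisense and sense to the element. The bars reach 16.6% in semen and 18.2% in testes, against 3.34% in spermatheca and under 0.2% in eggs and ovaries, and the antisense piece is the larger in every tissue.

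The LARDs of chromosome 16, although only 533, were instead most prominent in spermatheca, eggs and ovaries. They held 4.24% of TE counts in semen and 12.0% in testes, but 75.1% in spermatheca, 77.4% in eggs and 76.4% in ovaries. Unplaced LARDs held 1.08% in semen, 7.42% in testes, 4.45% in spermatheca, 4.97% in eggs and 5.19% in ovaries. The other TEs held 78.1% in semen, 62.4% in testes, 17.1% in spermatheca, 17.6% in eggs and 18.3% in ovaries, so they too took a larger share in the male tissues. Per kilobase of annotated element, the ovaries column had 13.5 counts on LARDs of chromosomes 1 to 15, against 190367 on those of chromosome 16 and 829 on those of unplaced scaffolds. In testes the same measure was 36.5 counts per kilobase on chromosomes 1 to 15, against 598 on chromosome 16 and 23.7 on unplaced scaffolds.

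The direction of the reads separated these elements from their namesakes on chromosome 16 as well. On LARDs of chromosomes 1 to 15, counts were antisense to the element for 96.0% in semen (95.7 to 96.2), 74.7% in testes (74.5 to 74.9), 91.2% in spermatheca (91.1 to 91.4), 68.0% in eggs (67.6 to 68.3) and 66.7% in ovaries (66.4 to 67.1). On LARDs of chromosome 16 the antisense share was at most 0.698% (0.655 to 0.743), the value in testes. Unplaced LARDs had antisense shares of 71.8% in semen, 75.3% in testes, 54.9% in spermatheca, 55.7% in eggs and 57.6% in ovaries, which in testes was slightly above the LARDs of chromosomes 1 to 15 and in the other tissues below them. Of all counts antisense to any TE, the LARDs of chromosomes 1 to 15 held 49.7% in semen, 21.6% in testes and 22.0% in spermatheca, but 0.553% in eggs and 0.800% in ovaries. Single elements weigh on these shares. In semen 1 element held 16250 of the 21266 antisense LARD counts, and in spermatheca another held 129003 of 183949. In testes the leading one held 44006 of 156201. The shares without these elements were not computed.

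Few of the elements carried these counts. Of the 11379 LARDs, 8500 (74.7%) had a count of 0 in every tissue and 10315 had no tissue above 3 counts, which was taken as the floor. Above the floor were 91 LARDs in semen, 395 in testes, 502 in spermatheca, 668 in eggs and 721 in ovaries, and 53 were above it in all 5 tissues. A count of 0 allows up to 3 counts, that is up to 0.00224% of TE counts in semen but 5.2e-06% in ovaries, so an element at 0 in semen is limited far less closely than an element at 0 in ovaries. Eggs and ovaries shared 563 of these LARDs (84.3% of those in eggs, 78.1% of those in ovaries). Testes and ovaries shared 175 (44.3% of those in testes, 24.3% of those in ovaries), and semen and testes shared 72 (79.1% of those in semen, 18.2% of those in testes). The same counts were not made over all TEs, so none of these values is shown to be particular to these LARDs.

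By counts, single elements led in semen and spermatheca, whereas counts were spread more evenly in eggs and ovaries. The leading LARD held 73.3% of LARD counts in semen (72.8 to 73.9), 21.0% in testes (20.9 to 21.2), 64.0% in spermatheca (63.8 to 64.2), 10.3% in eggs (10.1 to 10.5) and 7.95% in ovaries (7.76 to 8.14). It took 1 LARD to reach 50% of the counts in semen, 4 in testes, 1 in spermatheca, 26 in eggs and 34 in ovaries. To reach 90% it took 4 in semen, 30 in testes, 8 in spermatheca, 197 in eggs and 213 in ovaries. Per kilobase of element the contrast with semen turned. The LARD leading by that measure held 56.9% in eggs and 49.1% in ovaries, against 47.5% in semen. In testes it held 24.3% and in spermatheca 70.9%. Without its leading element the share of TE counts was 5.02% in semen, 14.9% in testes, 1.23% in spermatheca, 0.0763% in eggs and 0.124% in ovaries, so the values of semen and spermatheca rest on 1 element each for their size, while the order of the male tissues over eggs and ovaries held without it.

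**Figure D2:**
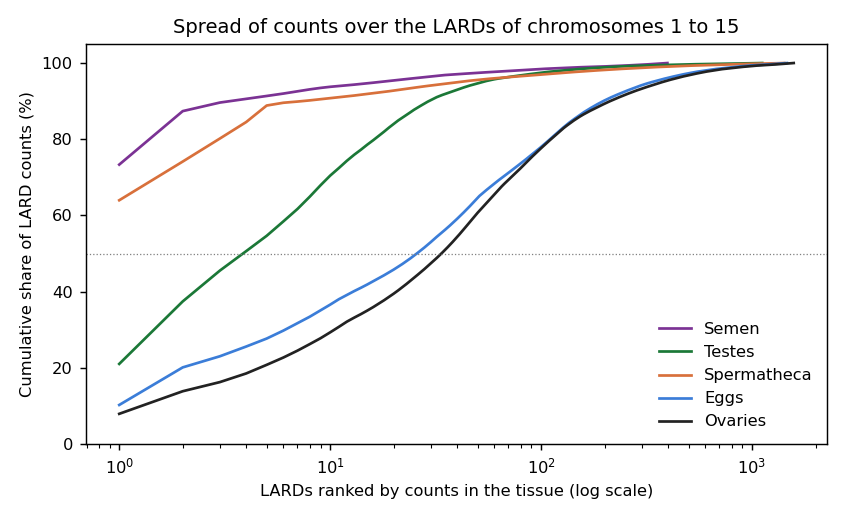
Cumulative share of LARD counts (%, y axis) against the number of LARDs of chromosomes 1 to 15 taken in order of their counts in that tissue (x axis, log scale), with 1 line for each tissue. The lines of semen and spermatheca start at 73.3% and 64.0%, that of testes at 21.0%, and those of eggs and ovaries at 10.3% and 7.95%.

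Most elements with counts were read from 1 strand. Among LARDs above the floor, those with at least 90% antisense counts numbered 51 in semen, 230 in testes, 269 in spermatheca, 318 in eggs and 355 in ovaries. Those with at most 10% antisense counts numbered 32 in semen, 83 in testes, 122 in spermatheca, 181 in eggs and 203 in ovaries. Only 8 LARDs in semen, 82 in testes, 111 in spermatheca, 169 in eggs and 163 in ovaries lay between. Elements just above the floor are included, and few counts fall on 1 strand easily. The split was not made over all TEs, so it is not shown to be particular to these LARDs.

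The length of the elements that held most counts also differed between tissues, which in semen and spermatheca rests on single elements. LARDs under 100 bases, 17.3% of the elements, held 83.4% of the LARD counts in spermatheca, and these were 99.8% antisense. The leading element of spermatheca held 129003 of these 168111 counts. Elements of at least 100 but under 500 bases held 78.1% of the counts in semen and 84.3% in testes. In semen, the leading element held 16250 of the 17294 counts of this class. Elements of at least 500 but under 2000 bases, 12.0% of all, held 37.3% of the counts in eggs and 43.9% in ovaries. The share of elements above the floor grew with length in every tissue, to 4.89% of those of at least 2000 bases in semen, 20.7% in testes, 24.2% in spermatheca, 25.4% in eggs and 29.5% in ovaries.

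The 10 LARDs with the most counts in each tissue made up 27 different elements. Eggs and ovaries had 8 of their 10 in common, semen and spermatheca 6, testes and spermatheca 5, and semen and testes 4. Neither semen nor testes shared any of its 10 with ovaries. These overlaps were not taken over all TEs, so none is shown to be particular to these LARDs. The 10 together held 93.8% of the LARD counts in semen, 70.5% in testes, 90.8% in spermatheca, 36.6% in eggs and 29.3% in ovaries. Of the 10, at least 90% antisense were 7 in semen, 8 in testes and 8 in spermatheca, against 5 in eggs and 5 in ovaries. Positions below are those of the Amel 4.5 assembly.

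**Figure D3:**
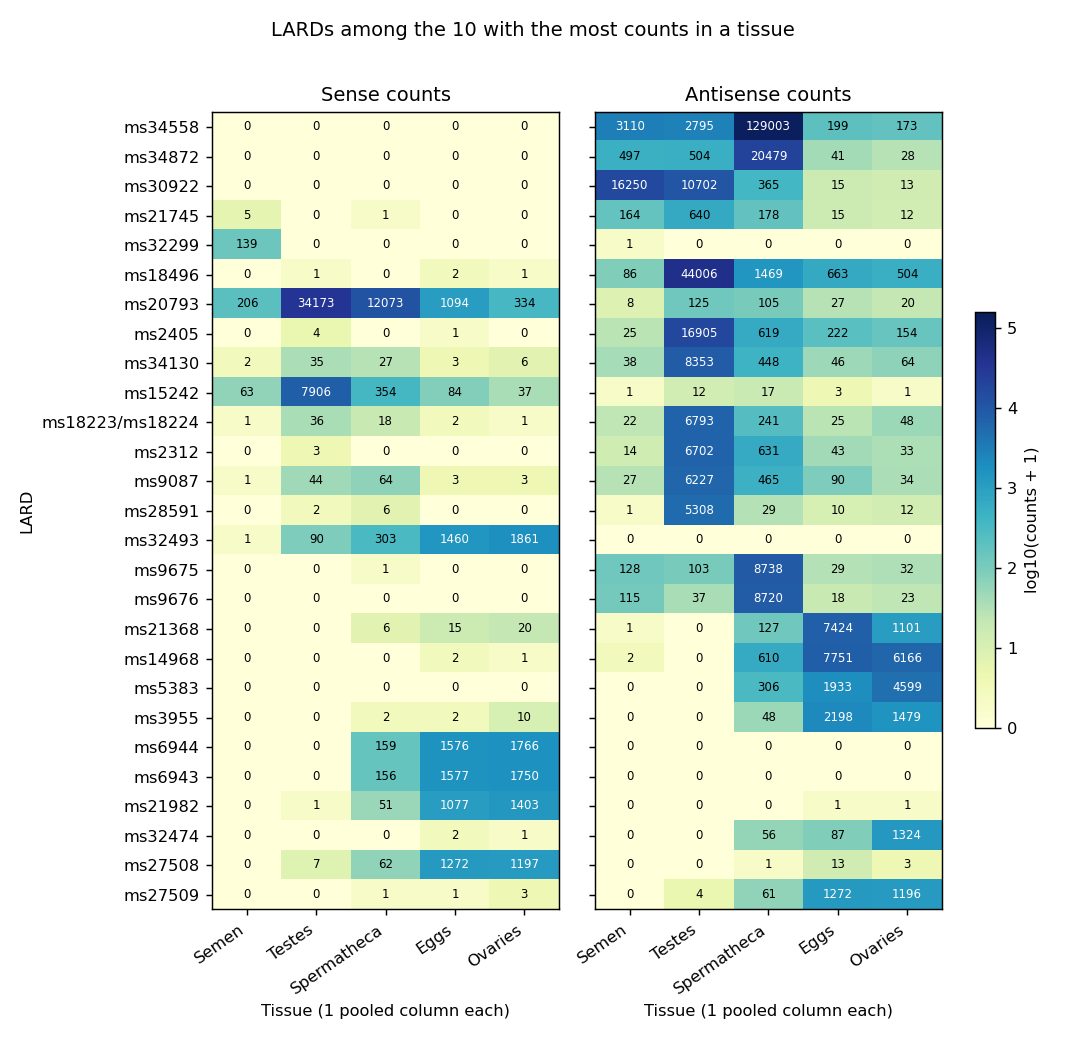
Sense counts (left) and antisense counts (right) of the 27 LARDs that were among the 10 with the most counts in a tissue (rows, grouped by the tissue in which each held the largest share of TE counts) in the 5 pooled columns (x axis). Colour is log10(count + 1) and the numbers are the raw counts; most elements have counts on a single side, and ms30922, ms34558, ms18496 and ms14968 lead semen, spermatheca, testes and both eggs and ovaries.

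Semen was led by ms30922, a LARD of 354 bases on the - strand of chromosome 13 from 2761533 to 2761886, outside any annotated gene. All of its counts were antisense, with 16250 in semen, 10702 in testes, 365 in spermatheca, 15 in eggs and 13 in ovaries. As a share of TE counts this was 12.1% in semen and 0.929% in testes, against 0.00605% in spermatheca, 1.69e-05% in eggs and 2.26e-05% in ovaries. The 8 other LARDs within the same locus, a stretch of chromosome 13 from 2731774 to 2771286 in which neighbouring LARDs are under 10000 bases apart, added 1 count in semen. A different element, ms32299 (60 bases, chromosome 14, 1564636 to 1564695, - strand), was found in semen alone, with 139 sense and 1 antisense counts there and 0 in testes, spermatheca, eggs and ovaries. It lies within GB48478 (LOC100578307, a protein-coding gene of the same strand), which had 3465 sense counts in semen and 0 in each of the other tissues.

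Spermatheca was led by ms34558, a LARD of 92 bases on chromosome 15 (6862419 to 6862510, - strand). It had 3110 antisense counts in semen, 2795 in testes, 129003 in spermatheca, 199 in eggs and 173 in ovaries, and no sense count in any tissue. Relative to all TE counts it was as prominent in semen (2.32%) as in spermatheca (2.14%), with 0.243% in testes, 0.000224% in eggs and 0.00030% in ovaries. The element lies inside GB50156 (LOC726458), a protein-coding gene of the + strand, so reads antisense to the LARD run along the gene. That gene had 3111 sense counts in semen, 2798 in testes, 129024 in spermatheca, 202 in eggs and 175 in ovaries, so that nearly all of its sense counts fell on this short element.

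The second element of spermatheca had the same form. It was ms34872, 90 bases on the + strand of chromosome 15 from 8230083 to 8230172, inside GB50003 (LOC408517), a protein-coding gene of the - strand. It had 497 antisense counts in semen, 504 in testes, 20479 in spermatheca, 41 in eggs and 28 in ovaries, and the sense counts of its gene were 501 in semen, 510 in testes, 20490 in spermatheca, 52 in eggs and 39 in ovaries. Next came a neighbouring pair on the - strand of chromosome 4, ms9675 (89 bases, 4356871 to 4356959) and ms9676 (93 bases, 4356706 to 4356798), both inside GB49566 (LOC411048), a protein-coding gene of the + strand. In spermatheca ms9675 had 8738 antisense counts and ms9676 had 8720, and the gene had 17484 sense counts. In semen the pair had 128 and 115 antisense counts, against 103 and 37 in testes. These 4 elements, all under 100 bases and all facing a gene, each had their highest raw count in spermatheca, but as a share of TE counts ms34872 stood at 0.372% in semen and 0.340% in spermatheca, and ms9675 at 0.0957% in semen and 0.145% in spermatheca.

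Testes were led by ms18496, a LARD of 253 bases on the - strand of chromosome 7 from 11726424 to 11726676, inside GB44328 (LOC100576948), a protein-coding gene of the + strand. Its antisense counts were 86 in semen, 44006 in testes, 1469 in spermatheca, 663 in eggs and 504 in ovaries. These were 0.0643% of TE counts in semen, 3.82% in testes, 0.0244% in spermatheca and under 0.001% in eggs and in ovaries. The gene had 44007 sense counts in testes, so here too the sense counts of the gene fell on the LARD. The second element, ms20793 (163 bases, chromosome 8, 10618169 to 10618331, + strand), lies outside annotated genes and was read in the sense direction, with 206 sense counts in semen, 34173 in testes, 12073 in spermatheca, 1094 in eggs and 334 in ovaries. It held 0.160% of TE counts in semen, 2.98% in testes, 0.202% in spermatheca, 0.00126% in eggs and 0.000614% in ovaries, so that it too was most prominent in testes.

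A pair of testes elements faces the same gene. The LARDs ms2405 (472 bases, 13360405 to 13360876) and ms2312 (327 bases, 13471397 to 13471723) lie on the + strand of chromosome 1 inside GB46526 (LOC410718), a protein-coding gene of the - strand, where the + strand gene GB46405 also runs. Antisense counts of ms2405 were 25 in semen, 16905 in testes, 619 in spermatheca, 222 in eggs and 154 in ovaries. Those of ms2312 were 14 in semen, 6702 in testes, 631 in spermatheca, 43 in eggs and 33 in ovaries. The sense counts of GB46526 in testes were 27020, most of them on these 2 elements.

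Other testes elements lie outside genes or were read in either direction within them. The LARD ms34130 (149 bases, chromosome 15, 3556571 to 3556719, + strand) lies in GB49478 (LOC726228), a gene of the same strand, and its 8353 antisense counts in testes equal the antisense counts of the gene there, with 38 in semen, 448 in spermatheca, 46 in eggs and 64 in ovaries. The long element ms15242 (4875 bases, chromosome 6, 13081018 to 13085892, + strand) was read sense, with 63 sense counts in semen, 7906 in testes, 354 in spermatheca, 84 in eggs and 37 in ovaries, and GB42974, a gene of the same strand, had 7908 sense counts in testes, while GB42956, which runs there on the opposite strand, had 7915 antisense counts. Outside annotated genes, ms18223/ms18224 (102 bases, chromosome 7) had 6793 antisense counts in testes, ms9087 (337 bases, chromosome 3) had 6227 and ms28591 (226 bases, chromosome 12) had 5308. In ovaries these 3 had 48, 34 and 12 antisense counts.

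Eggs and ovaries were led by the shortest of the named elements. The LARD ms14968 has 39 bases, on the - strand of chromosome 6 from 10224026 to 10224064 and outside annotated genes. Its antisense counts were 2 in semen, 0 in testes, 610 in spermatheca, 7751 in eggs and 6166 in ovaries. Its share of TE counts was small and alike in spermatheca (0.0101%), eggs (0.00874%) and ovaries (0.0107%). The 2 counts in semen are under the floor, which is 0.00224% of TE counts there and 0.00026% in testes. A second element, ms5383 (198 bases, chromosome 2, 4722979 to 4723176, - strand), had antisense counts of 0 in semen, 0 in testes, 306 in spermatheca, 1933 in eggs and 4599 in ovaries. It lies inside GB50800 (LOC410888), a protein-coding gene of the + strand whose sense counts were 38 in semen, 20 in testes, 5138 in spermatheca, 16997 in eggs and 15641 in ovaries, so that only part of the reads along this gene fell on the LARD.

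Some of these elements were read against the strand of their gene. The LARD ms21368 (400 bases, chromosome 8, 13106693 to 13107092, - strand) lies in GB51668 (LOC412161), a gene of the same strand, and had antisense counts of 1 in semen, 0 in testes, 127 in spermatheca, 7424 in eggs and 1101 in ovaries. The antisense counts of GB51668 were 8058 in eggs and 1291 in ovaries, so most of them were on this element. In ovaries the 1324 antisense counts of ms32474 (730 bases, chromosome 14, 2774047 to 2774776) equalled those of GB42260 (LOC410479), its gene on the same strand, and the element had 0 antisense counts in semen, 0 in testes, 56 in spermatheca and 87 in eggs.

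Longer elements of eggs and ovaries were read in a single direction each. The LARD ms3955 (2949 bases, chromosome 1, 24955460 to 24958408, - strand) had antisense counts of 0 in semen, 0 in testes, 48 in spermatheca, 2198 in eggs and 1479 in ovaries. The adjoining elements ms6943 (2305 bases) and ms6944 (3744 bases) on chromosome 3 had sense counts only, 156 and 159 in spermatheca, 1577 and 1576 in eggs and 1750 and 1766 in ovaries, and none in semen or testes. Sense counts of ms21982 (5229 bases, chromosome 9) were 0 in semen, 1 in testes, 51 in spermatheca, 1077 in eggs and 1403 in ovaries, and those of ms32493 (440 bases, chromosome 14) were 1 in semen, 90 in testes, 303 in spermatheca, 1460 in eggs and 1861 in ovaries. Of the 27 elements, 8 were at or under the floor in both semen and testes.

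Some counts were entered for more than 1 annotation. The elements ms27508 and ms27509 overlap by 1012 bases on opposite strands of chromosome 11, and the 1272 sense counts of ms27508 in eggs equal the 1272 antisense counts of ms27509. The antisense counts of ms21745 (8421 bases, chromosome 9, 1102586 to 1111121, + strand) were 164 in semen, 640 in testes, 178 in spermatheca, 15 in eggs and 12 in ovaries, and each equals the sense count of an annotated SINE of the - strand with which it shares 2 bases. Over all LARDs described here, 141 share a base with another TE, and they held 0.862% of the LARD counts in semen, 0.583% in testes, 0.235% in spermatheca, 5.25% in eggs and 5.23% in ovaries.

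Genes held nearly all LARD counts in spermatheca but few of those in semen. Of the 11379 LARDs, 5323 (46.8%) share at least 1 base with the span of an annotated gene, introns included: 2576 with a gene on the opposite strand, 2472 with a gene on the same strand and 275 with genes on both. These 5323 elements held 23.5% of the LARD counts in semen (23.0 to 24.1), 56.2% in testes (55.9 to 56.4), 89.3% in spermatheca (89.1 to 89.4), 48.6% in eggs (48.2 to 48.9) and 47.7% in ovaries (47.3 to 48.0). The leading element weighs on these values: without it they were 88.2% in semen, 44.5% in testes, 70.2% in spermatheca, 54.1% in eggs and 51.8% in ovaries, an alternative chosen after seeing the data. Whether a read lay in an exon or an intron was not analysed here.

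Reads on LARDs that overlap a gene were mostly on the strand of the gene in the male tissues and in spermatheca. Over the 5048 LARDs whose genes lie on 1 strand, the share of counts on that strand was 96.0% in semen (95.4 to 96.5), 79.1% in testes (78.8 to 79.4), 97.9% in spermatheca, 55.9% in eggs (55.4 to 56.4) and 65.1% in ovaries (64.6 to 65.6). Without its leading element the share was 54.7% in testes, which then lay beside eggs, and 92.5% in spermatheca. In semen, eggs and ovaries the leading element lies in no gene, so the share could not change from 96.0%, 55.9% and 65.1%. Of the 4759 semen counts on the strand of the gene, 3110 were on ms34558, which was not left out there. These shares take all counts of an element, also those outside the part that overlaps the gene: in eggs ms3955 had 2198 antisense counts while GB55865, which overlaps 83.6% of it on the opposite strand, had 11 sense counts. Over the 4659 LARDs that lie wholly inside genes of 1 strand, an alternative chosen after seeing the data, the share was 96.1% in semen, 79.4% in testes, 98.0% in spermatheca, 46.8% in eggs and 58.0% in ovaries. The leading elements of semen, eggs and ovaries lie in no gene. Of the counts antisense to a LARD, those on elements facing a gene of the opposite strand made up 20.4% in semen, 40.6% in testes, 93.5% in spermatheca, 27.0% in eggs and 32.0% in ovaries.

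**Figure D4:**
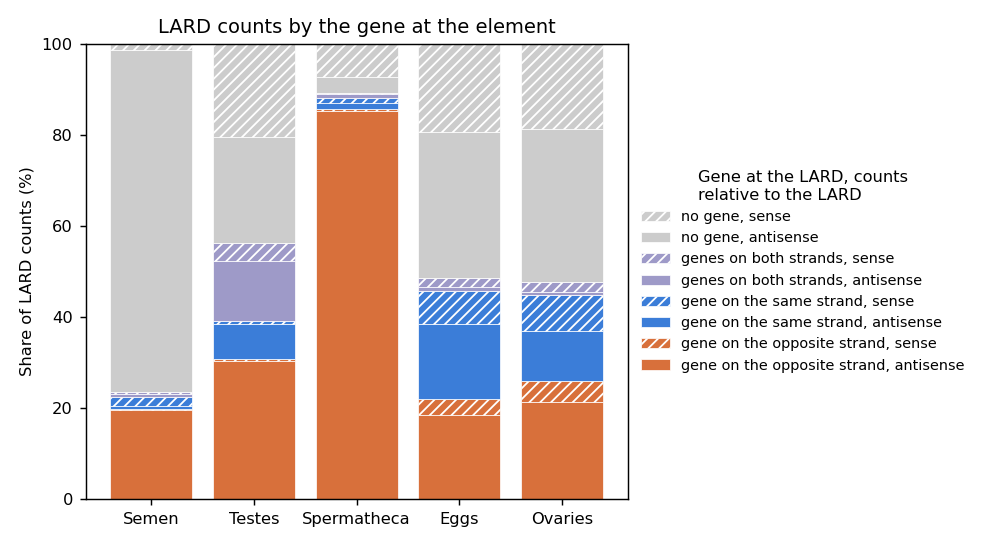
Share of LARD counts (%, y axis) in each tissue (x axis, 1 pooled column each) on elements that overlap a gene on the opposite strand, a gene on the same strand, genes on both strands or no gene, with counts sense to the element hatched. Antisense counts on elements facing a gene of the opposite strand fill most of the spermatheca bar, and elements in no gene, led by ms30922, fill 76.5% of the semen bar.

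Counts were gathered on a few chromosomes in semen, spermatheca and testes, which differed between these tissues, and were spread more widely in eggs and ovaries. Chromosome 13 held 73.6% of the LARD counts in semen, and chromosome 15 held 74.6% of those in spermatheca. In testes, chromosome 7 held 27.6%, chromosome 8 held 18.1% and chromosome 1 held 15.7%. In eggs and ovaries the largest share was that of chromosome 6, at 18.5% in eggs and 15.7% in ovaries. The leading element accounts for most of such peaks: ms18496 held 76.1% of the testes counts of chromosome 7, ms20793 held 90.7% of those of chromosome 8, and ms14968 held 55.5% of the eggs counts and 50.8% of the ovaries counts of chromosome 6.

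**Figure D5:**
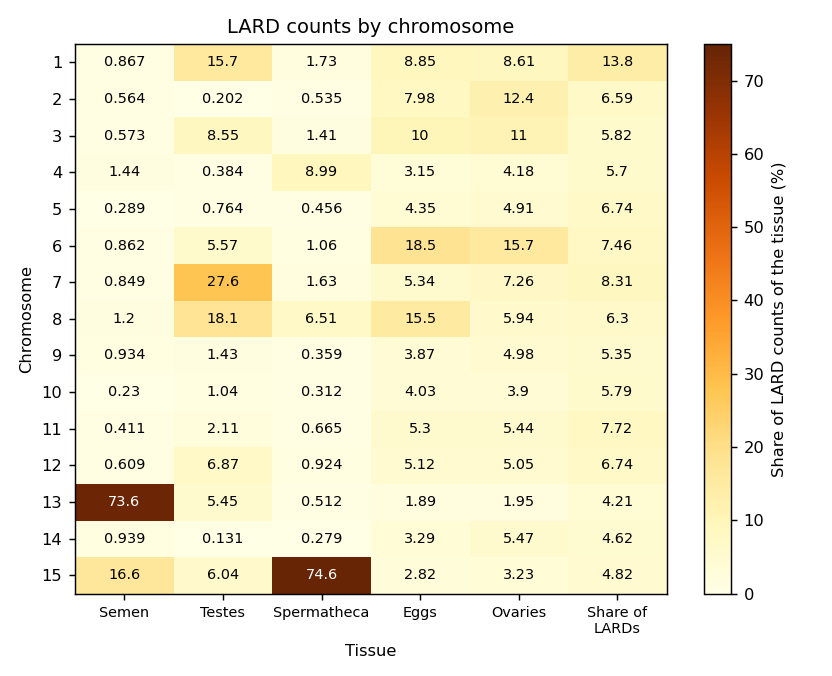
Share of the LARD counts of each tissue (%, first 5 columns) that fell on each of chromosomes 1 to 15 (rows), beside the share of the LARDs that lie there (%, last column). The highest cells are chromosome 13 in semen at 73.6% and chromosome 15 in spermatheca at 74.6%, while chromosome 1, with 13.8% of the elements, held 0.867% of the counts in semen.

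Neighbouring LARDs added little to the leading ones. Joining LARDs less than 10000 bases apart gave 5156 loci, and the leading locus held 73.4% of the LARD counts in semen, 21.0% in testes, 64.0% in spermatheca, 11.1% in eggs and 8.70% in ovaries, close to the share of the leading element alone. In the second locus of testes, on chromosome 8 from 10600749 to 10635622, 1 of 10 LARDs held 99.8% of the counts. The exceptions were the third locus of spermatheca on chromosome 4, where ms9675 and ms9676 held about equal counts, and the third locus of eggs and ovaries on chromosome 3 from 143201 to 155960, where ms6943 and ms6944 did.

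Antisense counts were then compared between pairs of tissues, element by element. Counts were scaled by the TMM method of edgeR over all TEs of the antisense table, which assumes that most elements are unchanged, and the fold was taken for elements that reached 5 counts in at least 1 tissue of the pair. A fold over 5 is called higher or lower. Counts under 3 were set to 3, which makes the fold a lower bound, and with 1 column a tissue these folds have no replicate check. The scaling decides many of these calls, and the splits under other scalings stand beside each.

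Semen was called both higher and lower than ovaries, but every lower call rests on the floor. Of 441 LARDs compared, 37 were over 5-fold higher in semen (8.39%, against 4.32% of all TEs compared) and 77 were lower (17.5%, against 29.4% of all TEs). All 77 had under 3 counts in semen, and 6 of the 37 had under 3 in ovaries, so these folds are lower bounds. For 221 of the 441 no fold could be given because of the floor, and no median is given. Scaling by table totals gave 54 higher and 2 lower, DESeq2 size factors gave 32 and 83, and unscaled counts gave 6 and 226. The largest were ms30922, 12054-fold higher with 16250 antisense counts in semen against 13 in ovaries, ms34558 at 173-fold and ms34872 at 171-fold higher. The LARD ms14968, with 2 antisense counts in semen and 6166 in ovaries, was at least 213-fold lower in semen, ms5383 at least 159-fold lower and ms3955 at least 51.1-fold lower. These bounds shrink with table totals, to log2 values of -3.76 for ms14968, -3.34 for ms5383 and -1.71 for ms3955, the last of which is then under 5-fold.

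Testes against ovaries gave the most calls. Of 572 LARDs compared, 164 were over 5-fold higher in testes (28.7%, against 18.0% of all TEs) and 137 were lower (24.0%, against 30.9%). Of the 164, 89 had under 3 counts in ovaries, and 127 of the 137 had under 3 in testes, so these folds are lower bounds. With counts under 3 set to 3, the median log2 ratio was -0.40 for the LARDs and -0.86 for all TEs, which includes 44 LARDs for which no fold could be given. Table totals gave 220 higher and 68 lower, the size factors of DESeq2 gave 147 and 166, and unscaled counts gave 118 and 201. With 10702 antisense counts in testes and 13 in ovaries, ms30922 was 1663-fold higher in testes, ms28591 was 893-fold higher, and ms22880 (361 bases, chromosome 9), with 1934 counts in testes and 1 in ovaries, was at least 1302-fold higher. With 0 counts in testes, ms14968 was at least 1018-fold lower, ms5383 at least 759-fold lower and ms3955 at least 244-fold lower in testes.

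With TMM scaling, spermatheca was called higher than ovaries for many LARDs and lower for few, a split on which the floor and the scaling weigh. Of 522 compared, 152 were over 5-fold higher in spermatheca (29.1%, against 18.9% of all TEs) and 12 were lower (2.30%, against 1.67%). Of the 152, 70 had under 3 counts in ovaries, and 2 of the 12 had under 3 in spermatheca, so these folds are lower bounds. The TMM scale of spermatheca to ovaries was 0.161, so low counts pass 5-fold more easily as higher than as lower. For 142 of the 522 no fold could be given because of the floor, and no median is given. Unscaled counts gave 62 higher and 185 lower, DESeq2 size factors gave 151 and 19, and table totals gave 160 and 6. Led by ms34558 with 129003 antisense counts in spermatheca and 173 in ovaries (4635-fold), the largest increases were those of ms34558, ms34872 (4546-fold) and ms9676 (2357-fold), short elements that all face a gene. The largest decreases were smaller, 9.33-fold for ms6324 (514 bases, chromosome 2; 7 counts in spermatheca and 406 in ovaries), at least 7.78-fold for ms913 and 7.35-fold for ms16672.

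Eggs and ovaries gave the fewest calls among the pairs with ovaries. Of 488 LARDs compared, 15 were over 5-fold higher in eggs (3.07%, against 2.95% of all TEs) and 14 were lower (2.87%, against 1.80%), close to the background in both directions. Folds were lower bounds for 6 of the 15 and 8 of the 14. The median log2 fold was -0.34 for the LARDs and -0.04 for all TEs. Table totals gave 8 higher and 36 lower, and DESeq2 size factors, like unscaled counts, gave 15 and 10. The LARD ms11726 (555 bases, chromosome 5), with 77 antisense counts in eggs and 2 in ovaries, was at least 24.5-fold higher in eggs, and ms6963 (chromosome 3, 170 and 11 counts) was 14.7-fold higher. The neighbouring elements ms913 and ms914 on chromosome 1, which adjoin from 4340720 to 4342747, were both lower, ms913 at 30.4-fold with 5 counts in eggs and 145 in ovaries and ms914 at least 24.8-fold with 1 count in eggs and 71 in ovaries.

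Semen against testes gave 14 of 246 LARDs over 5-fold higher in semen (5.69%, against 4.65% of all TEs) and 37 lower (21.2% of all TEs were). For 124 of the 246 no fold could be given because of the floor, and no median is given. Table totals gave 15 higher and 34 lower, DESeq2 size factors gave 15 and 36, and unscaled counts gave 1 and 145. The largest increase was that of ms32298 (168 bases, chromosome 14, 1561929 to 1562096, + strand), at least 109-fold with 28 antisense counts in semen and 0 in testes. It lies within the span of GB48478, the - strand gene named above, so reads antisense to this LARD run along that gene. GB48478 had 3465 sense counts in semen and 0 in testes. Next came ms11850 (chromosome 5), 46.6-fold higher with 16 counts in semen and 4 in testes. The LARD ms9676 was 36.2-fold higher with 115 counts in semen and 37 in testes. The LARD ms28591, with 1 antisense count in semen and 5308 in testes, was at least 152-fold lower in semen, and ms2405 was 58.0-fold lower with 25 counts in semen and 16905 in testes.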

How the data were processed

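The authors mapped small RNA reads to the honey bee assembly Amel 4.5, kept mapped reads of piRNA length that did not fall on other annotated small or structural RNAs, and used featureCounts (Rsubread) to count them on TEs and whole genes. The submitters' processing notes also name Bowtie 1.2.3. The deposited values are raw counts in 4 tables (TEs and genes, sense and antisense), each with 5 columns, 1 for each tissue. How libraries were combined in a column, and how reads with several positions or overlapping features were counted, are not given in the sources used here. Repeated elements make the second point matter, since a read that fits several LARDs may be counted on each or on none. Low totals limit semen most, and intervals and the floor of 3 counts were computed from the totals of each tissue.

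Tests between replicate libraries could not be run, since the tables hold 0 replicate columns. Shares with 95% Wilson intervals were computed in Python 3.11.15 with pandas 2.3.3 and statsmodels 0.14.6. Folds were computed in R 4.3.3 from TMM factors of edgeR 4.0.16, for TEs that reached 5 counts in 1 or both tissues, and folds over 5 were called. Folds are missing where neither tissue exceeded 3 counts, or where setting counts under 3 to 3 turned the direction round. The fold step was tested on simulated data. Elements named are up to 10 with the most counts in each tissue and up to 3 with the largest fold in each direction of a pair, with up to 3 loci a tissue, and genes that overlap the former. Gene symbols were matched from RefSeq (Amel_HAv3.1, names only) for 12 of 20 such genes. The elements and lists were chosen with earlier results of these data known. Alternatives were other scalings (table totals, DESeq2 1.42.0 size factors, none) and a weaker filter, which required more than 3 counts in either tissue. Others left out the leading LARD or LARDs that overlap another TE, or used other denominators. Merge distances of 1000 and 50000 bases and a gene overlap of 50% or of the whole element were also used.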

Additional observations from a re-analysis of the deposited data

How the results depend on the processing

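No paired analysis was possible because the tables hold no replicate columns, and leaving out each replicate could not be run for the same reason. Of 110 values recomputed, 53 stayed within their counting interval (or, for counts of LARDs, within 1.5 times) and 57 moved. The cause was not tested. Of the 53, 3 could not move: reads along the gene in semen, eggs and ovaries without a leading LARD that lies in no gene. Merge distances moved none. A weaker filter on low counts also moved none, but it still required more than 3 counts in either tissue, so little could change. Against ovaries it gave 169 higher in spermatheca, against 152, and 41 higher in semen, against 37.

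Values are given for semen, testes, spermatheca, eggs and ovaries in that order where all 5 moved. Without the leading LARD the share of TE counts was 5.02, 14.9, 1.23, 0.0763 and 0.124%, the antisense share 84.9, 68.0, 75.7, 64.3 and 63.9%, and the share in genes 88.2, 44.5, 70.2, 54.1 and 51.8%; reads along the gene were 54.7% in testes and 92.5% in spermatheca. Over TE plus gene counts the share was 7.81, 9.93, 2.71, 0.0760 and 0.121%. Per kilobase of element the share of the leading LARD was 47.5, 24.3, 70.9, 56.9 and 49.1%. By that measure testes were led by ms20793 in place of ms18496, and eggs and ovaries stood above semen. Without LARDs that overlap another TE, the share of TE counts was 18.1% in testes, 0.0806% in eggs and 0.128% in ovaries, and the antisense share 68.5% in eggs and 67.1% in ovaries. With at least 50% of the element in a gene, the share in genes was 55.7% in testes, 88.9% in spermatheca, 45.2% in eggs and 43.7% in ovaries, and reads along the gene 52.7% in eggs and 61.5% in ovaries. With the whole element in a gene, the share in genes was 22.6, 55.5, 88.7, 40.0 and 39.6%, and reads along the gene 46.8% in eggs and 58.0% in ovaries.

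Scaling moved the counts of LARDs over 5-fold most. Table totals gave 8 higher and 36 lower in eggs than in ovaries, 68 lower in testes, 6 lower in spermatheca and 2 lower in semen. DESeq2 size factors gave 19 lower in spermatheca. Unscaled counts gave 62 higher and 185 lower in spermatheca, 6 higher and 226 lower in semen, and 1 higher and 145 lower in semen than in testes. Which side was larger thus turned with the scaling against ovaries in all 4 pairs: for semen with table totals, for testes with DESeq2 size factors (147 higher and 166 lower) and without scaling (118 and 201), for spermatheca without scaling, and for eggs with table totals. In semen against testes it did not turn. The TE total limits semen most, where 3 counts are 0.00224% of TE counts.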

Other observations

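Both leading spermatheca elements, ms34558 and ms34872, kept a similar ratio to each other in all tissues although they lie in different genes. The counts of ms34558 over those of ms34872 were 6.26 in semen, 5.55 in testes, 6.30 in spermatheca, 4.85 in eggs and 6.18 in ovaries. As a share of the summed counts of both, ms34558 held 86.2% in semen (85.1 to 87.3), 84.7% in testes (83.5 to 85.9), 86.3% in spermatheca (86.1 to 86.5), 82.9% in eggs (77.6 to 87.2) and 86.1% in ovaries (80.6 to 90.2). The neighbouring pair ms9675 and ms9676 had about equal counts in spermatheca (8739 and 8720) and semen (128 and 115), but a ratio of 2.78 in testes, where ms9675 held 73.6% of the summed counts (65.7 to 80.2). Both pairs were chosen after their values were seen.

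Elements with equal values were rare. Of the 845 LARDs with at least 10 counts summed over the tissues, 13 in 6 sets had all 10 values equal to those of another LARD.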
